A study of Arabidopsis thaliana with 82 samples.

Results

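Joined and unjoined parts of the cut Arabidopsis hypocotyl, called tops and bottoms, were compared 120 h after the cut. The 8 libraries used, of 82 in the whole series, are 2 of grafted tops, 2 of grafted bottoms, 2 of separated tops and 2 of separated bottoms, and the labels name their position and time. The grafted libraries are the 4 joined ones and the separated libraries the 4 unjoined ones. All plants were Col-0 seedlings of 7 days, grown at 20 °C with 8 h of light on agar without added sugar, and every plant, controls included, had lost 1 cotyledon. Separated plants were severed across the hypocotyl and the pieces kept apart, so an unjoined top kept its shoot and an unjoined bottom its root. In grafted plants the top of one seedling was set on the bottom of another, so the 2 parts of a graft come from different plants. Uncut hypocotyls of the same time, 2 libraries, served as a further reference. The comparison asks which genes respond to joining alike above and below the cut.

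After a cut across a stem, sugar and auxin coming down from the shoot gather above the wound and run short below it, while water and nitrate from the root no longer reach the upper part. When the faces are held together, cells at the cut divide, adhere and rebuild phloem and xylem strands across the junction. The new strands come from cambium, the dividing layer between xylem and phloem, which the receptor kinase PXY and the homeobox factor WOX4 maintain in response to CLE peptides made in the phloem.

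Estimated depth was 10.3 to 20.21 M reads (M, 1e6) for 7 of the 8 libraries and could not be read from the values of grafted bottom replicate 1. Values are given as x, the authors' library-normalised score times 1 constant that makes a median library sum to 1 M, and a value of 1 stands for about 6.80 to 21.99 reads in those 7. Replicates of the 4 groups correlated at r = 0.983 to 0.989 over genes. Among the cut groups separated bottoms stood apart in composition. Their 10 most abundant genes held 10.6 to 10.7% of the total. That share was 5.65 to 5.73% in grafted bottoms and 3.17 to 4.29% in both kinds of top. In separated bottoms 18704 and 19243 genes were above 0, against 20713 to 22003 in the other 6 libraries. Intact hypocotyls were near separated bottoms, at 9.18 and 9.90%, with 19810 and 19393 genes above 0. A value of 1 stood for fewer reads in separated bottoms (9.26 and 6.80) than in the other cut libraries estimated (14.5 to 21.99). How far depth lowered the number of genes above 0 was not tested. Differences below are grafted minus separated on the log2(x + 1) scale with the standard error after ±, 4 libraries a side for the mean of both parts and 2 a side within a part, and tests are limma's with Benjamini-Hochberg adjustment over 20766 genes. The scale understates the change of low genes, and where a group is listed at 0 the difference is no fold.

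Joining changed the transcriptome in both parts, mostly in different ways. In bottoms 6358 genes were higher and 6098 lower in grafted than in separated tissue (30.6% and 29.4% of those tested). In tops 4065 were higher and 6141 lower (19.6% and 29.6%). Changes of at least 2-fold were more common in bottoms, with 4309 genes higher and 3056 lower (20.8% and 14.7%), than in tops, with 2343 and 2671 (11.3% and 12.9%). A minority of the genes called in tops or in bottoms were called in both parts in 1 direction, 1209 genes higher (5.82%) and 1088 lower (5.24%), which is 22.5% of the calls in tops and 18.4% of those in bottoms. A gene missing from the calls of a part is not thereby shown to be unchanged there, since shared changes can be missed. In simulated data 10 of 67 genes changed 2-fold in both parts were called in each part. More genes, 4127, were called in both parts in opposite directions, of which 2122 rose in tops and fell in bottoms (10.2%) and 2005 did the reverse (9.66%). The effect itself differed between tops and bottoms by the test of the difference for 5015 genes in which it was more positive in tops (24.2%) and 7817 in which it was more negative there (37.6%). The mean effect of joining passed the test with the same sign in both parts for 2966 genes higher (14.3%) and 3642 lower (17.5%), and for 1700 and 532 of them it was at least 2-fold (8.19% and 2.56%). For 3171 of these 6608 genes the effect differed between parts by the test, and in 2352 of the 3171 it was larger in size in bottoms. All 4 joined libraries lay above all 4 unjoined ones for 1763 genes (8.49%) and below them for 1616 (7.78%). The count of lower genes depended on the scaling and on 1 library. Median-of-ratios scaling on top of the authors' values raised the median difference over all genes in tops from -0.118 to 0.001, and the higher share of the mean calls from 44.9% to 59.3%. The 1088 genes lower in each part became 634 with that scaling and 687 without separated top replicate 1.

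**Figure D1:**
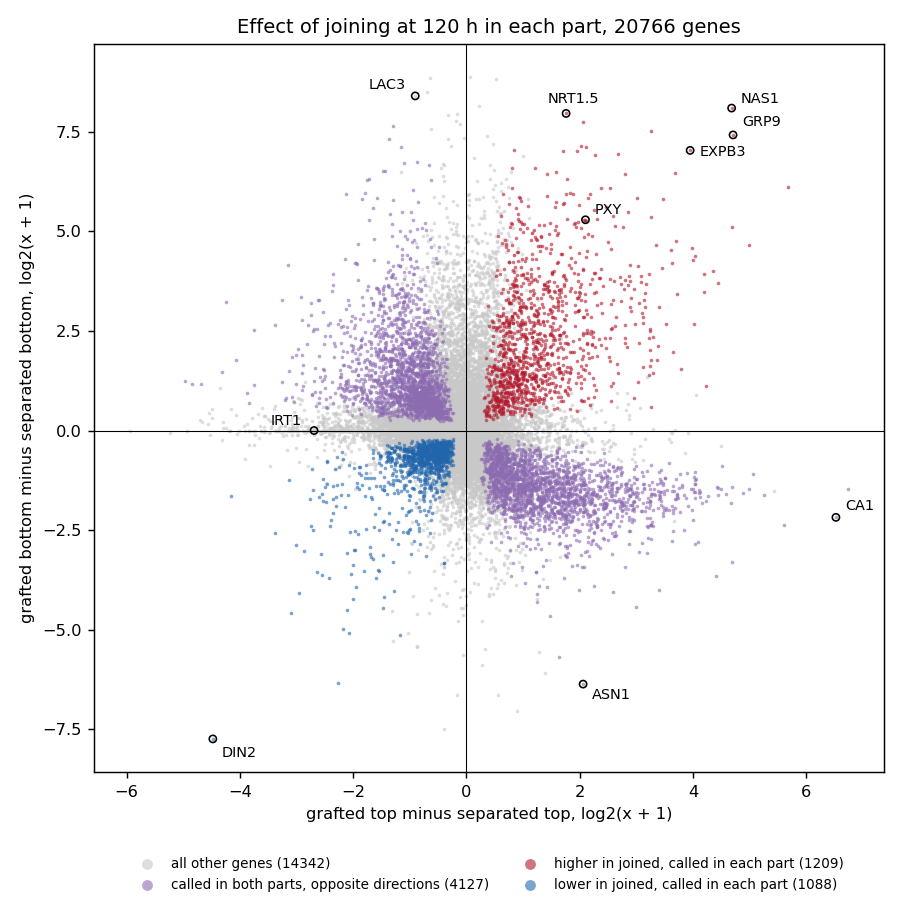
Each point is 1 of 20766 genes, with the grafted minus separated difference in log2(x + 1) in tops on the horizontal axis and in bottoms on the vertical axis at 120 h. The 1209 red and 1088 blue genes share a direction and lie right of and above, or left of and below, the origin, while the 4127 purple genes, called in opposite directions, lie left above and right below it.

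The gene with the largest mean effect among those called in each part with a mean x of at least 5 was NAS1 (AT5G04950), which makes nicotianamine, the chelator that carries iron and copper through phloem and between cells. NAS1 stood at 380 and 325 in grafted tops, 251 and 296 in grafted bottoms, 15.2 and 10.6 in separated tops and 0 and 0 in separated bottoms. The 4 joined libraries were all above the 4 unjoined ones, and the 2 separated bottoms listed none. The mean difference was 6.39 ± 0.35 (adjusted p = 4.3e-20), with 4.68 ± 0.50 in tops, and intact hypocotyls held 79.4 and 59.1. NAS1 has close copies in its family, so its counts are uncertain to that extent. EXPB3, a beta-expansin that loosens the cell wall, measured 426 and 534 in grafted tops, 525 and 555 in grafted bottoms, 30.6 and 29.3 in separated tops and 5.5 and 1.62 in separated bottoms, a difference of 5.49 ± 0.30 (adjusted p = 1.8e-20) with no overlap between joined and unjoined libraries. Intact hypocotyls, at 595 and 340, spanned the joined level. GRP9, a glycine-rich protein, reached 157 and 183 in grafted tops and 389 and 430 in grafted bottoms, against 2.75 and 10.4 in separated tops and 3.32 and 0.324 in separated bottoms (6.06 ± 0.32, adjusted p = 1.2e-20). It was listed at 0 in both intact libraries, so here joined tissue differed from intact tissue as well as from unjoined tissue.

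NRT1.5, the transporter that loads nitrate into root xylem, measured 52.8 and 56.2 in grafted tops, 411 and 434 in grafted bottoms, 13.3 and 17.8 in separated tops and 0.405 and 1.05 in separated bottoms. Joined libraries were higher in both parts, but the effect in bottoms, 7.96 ± 0.40, exceeded that in tops, 1.76 ± 0.40, by the test of the difference (adjusted p = 4.6e-13). The other 8 of the 12 genes with the largest positive effects are a pectin lyase-like protein (AT5G63180), a cupin (AT3G10080), a lipid-transfer family protein (AT5G05960), a papain family cysteine protease (AT4G11320), a vacuolar iron transporter family member (AT3G25190) and the genes AT2G28780, AT3G45160 and AT5G14090. Their mean differences ran from 4.63 to 5.89. For 3 of the 12, AT3G25190, AT5G63180 and AT3G45160, the effects above and below the cut could not be distinguished by the test. AT3G25190 measured 26.1 and 39.5 in grafted tops, 24 and 35 in grafted bottoms, 0 and 0.0809 in separated tops and 0.0809 and 0.324 in separated bottoms, a difference of 4.99 ± 0.33 in tops and 4.65 ± 0.33 in bottoms (adjusted p of the difference between parts = 0.53). AT5G63180 measured 96.1 and 149 in grafted tops, 101 and 121 in grafted bottoms, 0.809 and 2.1 in separated tops and 1.62 and 0 in separated bottoms, with 5.67 ± 0.41 and 6.11 ± 0.41 (adjusted p of the difference = 0.52). For AT3G45160 the differences were 4.69 ± 0.31 and 5.10 ± 0.31 (adjusted p of the difference = 0.43). In all 12 the joined and unjoined libraries did not overlap, whereas 8.49% of all genes had all joined libraries higher. The separation follows in part from choosing the largest effects in these same libraries. By the test 9 of the 12 had the larger effect in bottoms, beside 2352 of all 6608 genes that passed for the mean.

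**Figure D2:**
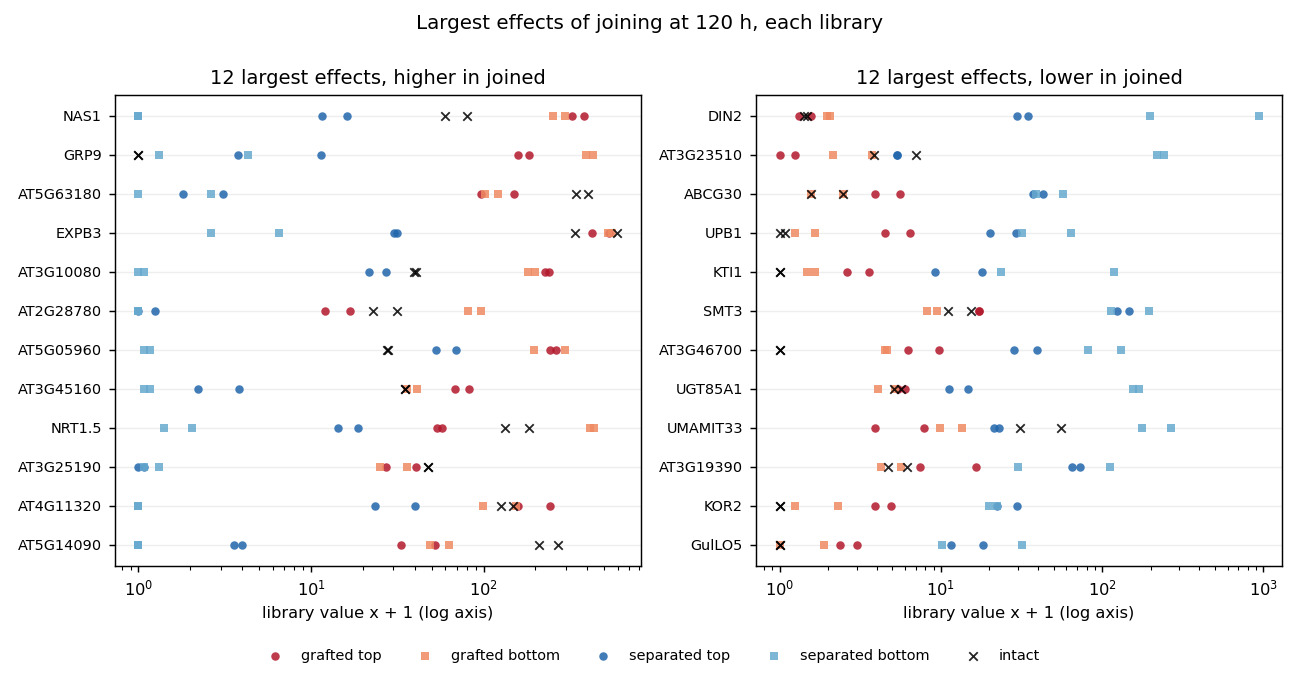
Library values of x + 1 on a log axis for the 12 largest positive effects of joining (left) and the 12 largest negative ones (right) at 120 h. Red and orange symbols are the joined parts, dark and light blue symbols the unjoined parts, and crosses intact hypocotyl; for each gene the reds and oranges lie on 1 side of the blues.

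Among genes lower in joined parts, DIN2, a beta-glucosidase known as a dark- and sugar-starvation-induced gene, changed most. DIN2 stood at 0.566 and 0.324 in grafted tops, 1.05 and 0.971 in grafted bottoms, 28.5 and 33.8 in separated tops and 198 and 931 in separated bottoms. All 4 joined libraries were near the intact level of 0.486 and 0.405, and the 2 separated bottoms were far from each other. The difference was -6.11 ± 0.50 (adjusted p = 3e-14), -4.48 ± 0.71 in tops and -7.74 ± 0.71 in bottoms. SMT3, a sterol methyltransferase, showed a closer match between replicates, with 16.3 and 16.3 in grafted tops, 7.2 and 8.42 in grafted bottoms, 145 and 123 in separated tops and 194 and 112 in separated bottoms (-3.52 ± 0.21, adjusted p = 3e-19). Its 2 intact libraries lay within the range of joined libraries. UPB1, a basic helix-loop-helix factor that controls peroxidases and reactive oxygen in the root, stood at 5.42 and 3.48 in grafted tops, 0.243 and 0.647 in grafted bottoms, 28 and 19.2 in separated tops and 30.6 and 63.4 in separated bottoms. The unjoined libraries were all above the joined ones (-3.58 ± 0.27, adjusted p = 9.4e-16), and intact tissue listed 0.0809 and 0.

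ABCG30, an ABC transporter, was lower in joined parts (-3.84 ± 0.31), and so was KTI1, a Kunitz trypsin inhibitor (-3.58 ± 0.32). KOR2, an endoglucanase of the KORRIGAN family, had a difference of -3.10 ± 0.24. The remaining 6 are 2 glycosyltransferases (UGT85A1 and AT3G46700), the transporter UMAMIT33, a granulin-repeat cysteine protease (AT3G19390), the lactone oxidase GulLO5 and AT3G23510, at -4.30 to -3.07. All 12 had joined libraries below all unjoined ones, beside 7.78% of all genes, which again follows in part from the choice. The effect was larger in bottoms by the test for 9 of the 12, beside the same 2352 of 6608 genes.

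Cambium genes were the list with the largest share of members that rose in each part. Of 26 tested, 18 were higher in grafted tops and in grafted bottoms, none was lower in both, and 23 passed for the mean of both parts, against 5.82% and 14.3% of all genes. The median difference was 0.85 in tops and 2.92 in bottoms, beside -0.118 and 0 over all genes. PXY measured 282 and 364 in grafted tops, 215 and 224 in grafted bottoms, 60.3 and 90.2 in separated tops and 10.4 and 1.78 in separated bottoms. Its difference was 3.70 ± 0.20 (adjusted p = 4.5e-20), with 2.1 ± 0.29 in tops (adjusted p = 3.9e-08), and intact hypocotyls stood at 93 and 91.4, about the separated-top level. WOX4, which acts downstream of PXY, measured 45.8 and 59.7 in grafted tops, 44.7 and 44.7 in grafted bottoms, 7.93 and 11.2 in separated tops and 3.64 and 1.21 in separated bottoms (3.09 ± 0.20, adjusted p = 4.4e-18), and both intact libraries (13.5 and 13.1) were below the 4 joined ones. For both genes joined parts were above, and separated bottoms far below, intact tissue.

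The homeobox factor HB8, which marks procambium, measured 315 and 287 in grafted tops, 252 and 208 in grafted bottoms, 67.2 and 73.9 in separated tops and 10.7 and 4.45 in separated bottoms (3.46 ± 0.17, adjusted p = 5.9e-22). ANT, an AP2-type factor that promotes cell proliferation, measured 84.5 and 95.7 in grafted tops, 75.8 and 66.6 in grafted bottoms, 17.9 and 23.5 in separated tops and 1.54 and 0.324 in separated bottoms (3.69 ± 0.16, adjusted p = 9.5e-24). LBD4, a LOB-domain factor of the phloem-side boundary of the cambium, measured 41.8 and 34 in grafted tops, 25.9 and 17.9 in grafted bottoms, 3.88 and 3.64 in separated tops and 0.647 and 0 in separated bottoms (3.58 ± 0.20, adjusted p = 9e-20). In each of the 3 the order was grafted top, grafted bottom, separated top, separated bottom with no overlap between joined and unjoined parts. In tops the differences were 2.08 ± 0.24 for HB8, 2.08 ± 0.23 for ANT and 3.02 ± 0.29 for LBD4.

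Other members were called in each part with a smaller effect in tops than HB8, ANT and LBD4. They were RUL1, a receptor kinase of the cambium (0.56 ± 0.17 in tops and 4.87 ± 0.17 in bottoms), MP, the auxin response factor of vascular development (0.75 ± 0.19 and 2.67 ± 0.19), and the DOF factor TMO6 (1.07 ± 0.27 and 3.83 ± 0.27), among others. HCA2, another DOF factor, went the same way (0.85 ± 0.32 and 3.65 ± 0.32). The receptor kinase gene ER had a larger effect in tops (2.52 ± 0.17) than in bottoms (1.85 ± 0.17), with an adjusted p of the difference of 0.014. By that test the effect was more positive in tops for 2 members of the list and more negative there for 22. The shares of all genes were 24.2% and 37.6%. CLE41 and CLE44, the phloem-made peptides that PXY perceives, passed for the mean effect (1.93 ± 0.17 and 1.53 ± 0.19) but not in tops (adjusted p = 0.082 and 0.33). LHW, LBD1 and KNAT1 did not pass with 1 sign in both parts. RNA came from whole pieces of tissue, so more cambium cells and more transcript per cambium cell cannot be told apart.

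**Figure D3:**
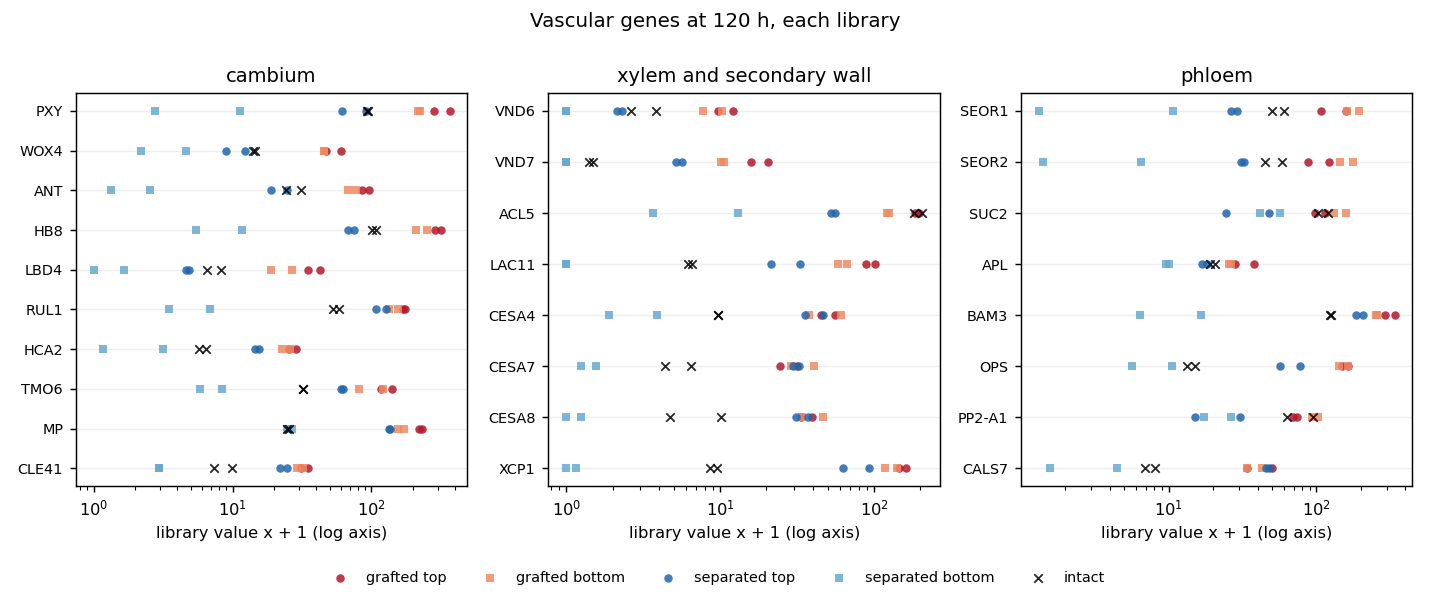
Library values of x + 1 on a log axis for 10 cambium, 8 xylem and 8 phloem genes at 120 h, chosen from the lists to show called and uncalled members. Grafted tops and bottoms (red, orange) lie right of separated tops (dark blue) for PXY to MP, while for CESA4, CESA7, CESA8 and CALS7 only separated bottoms (light blue) lie apart.

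The upstream bases of 2 of these cambium regulators, picked because both hold the core letters of the auxin response element, are shown as examples. How many cambium genes hold those letters was not counted, and a role of auxin was not tested. The bases shown are the 250 before the annotated gene start in RefSeq's TAIR10.1, written 5′ to 3′ on the gene's strand with every match to 9 short motifs in capitals. HB8 lies on the minus strand at chr4:15868651-15868900 and holds CCGACA, which is TGTCGG on the other strand, and TGTCTC. WOX4 lies on the minus strand at chr1:17238186-17238435 and holds GAGACA, which is TGTCTC on the other strand.
HB8: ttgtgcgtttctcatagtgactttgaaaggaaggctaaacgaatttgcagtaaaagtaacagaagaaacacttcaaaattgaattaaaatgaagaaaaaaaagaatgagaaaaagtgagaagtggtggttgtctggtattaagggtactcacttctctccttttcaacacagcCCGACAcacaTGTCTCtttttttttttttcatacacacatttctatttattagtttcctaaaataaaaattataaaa
WOX4: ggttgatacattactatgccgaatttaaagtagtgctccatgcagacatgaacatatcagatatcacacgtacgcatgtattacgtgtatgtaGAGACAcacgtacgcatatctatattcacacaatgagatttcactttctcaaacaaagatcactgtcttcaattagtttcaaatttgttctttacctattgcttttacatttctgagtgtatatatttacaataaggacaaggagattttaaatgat
Motif shares were taken over windows of 250 bases before to 50 after the start. TGTCTC occurred on either strand in 13.7% of 20563 windows, in 14.7% of 613 windows of genes higher in each part by at least 2-fold (617 genes, 2.97% of those tested) and in 11.0% of 146 windows of genes lower by as much (146 genes, 0.703%). TGTCGG occurred in 5.59%, 7.67% and 4.11% of them. CACGTG was found in 8.74%, 7.67% and 12.3% and ACTCAT in 14.1%, 15.0% and 14.4%. TATCCA occurred in 16.4%, 17.0% and 19.2% and the W-box core TTGAC in 51.0%, 45.8% and 55.5%. AACGG was found in 25.8%, 20.9% and 19.2%, and GCCGCC in 2.6%, 0.979% and 3.42%. The share furthest from that of all windows was that of GGCCCA, part of the site II elements that TCP factors bind, which stood in 18.3% of all windows, 5.22% of those of higher genes and 8.22% of those of lower genes. None of the 9 motifs contains another, and the shares are descriptions without a test.

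Nearly all xylem genes rose in bottoms and a minority, VND1, VND2, VND6, VND7, LAC11, ACL5, FLA12 and MC9, in tops too. Of 29 tested, those 8 were higher in each part, 27 were higher in bottoms and 21 passed for the mean (1 lower). The shares of all genes that were higher by these 3 rules were 5.82%, 30.6% and 14.3%. The median was 0.40 in tops and 3.42 in bottoms. VND7 and VND6 are NAC factors that switch on the vessel programme. VND7 stood at 19.6 and 14.8 in grafted tops, 9.06 and 9.55 in grafted bottoms, 4.69 and 4.13 in separated tops and 0 and 0 in separated bottoms (2.55 ± 0.17, adjusted p = 4.7e-17). VND6 stood at 8.74 and 11.2 in grafted tops, 6.72 and 9.31 in grafted bottoms, 1.13 and 1.29 in separated tops and 0 and 0 in separated bottoms (2.73 ± 0.21, adjusted p = 6.3e-15). Neither was above 0 in separated bottoms, and in tops the grafted libraries were at least 3 times the separated ones.

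ACL5, a thermospermine synthase that limits xylem differentiation, rose as well (1.81 ± 0.39 in tops, 4.16 ± 0.39 in bottoms), as did the laccase LAC11 (1.83 ± 0.68 and 5.95 ± 0.68). The cellulose synthases of the secondary wall had no called difference in tops. CESA7 measured 23.5 and 30.6 in grafted tops, 27.7 and 39.7 in grafted bottoms, 28.6 and 31.3 in separated tops and 0.243 and 0.566 in separated bottoms, so that both kinds of top and grafted bottoms overlapped and separated bottoms alone were low. Its difference in tops was -0.15 ± 0.42 (adjusted p = 0.79), and those of CESA4 and CESA8 were 0.30 ± 0.42 and 0.09 ± 0.47. The cysteine proteases XCP1 and XCP2 of dying vessels differed by 0.99 ± 0.62 and 0.78 ± 0.55 in tops (adjusted p = 0.18 and 0.25) and by 6.90 ± 0.62 and 6.49 ± 0.55 in bottoms.

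Phloem genes were higher in each part for 8 of 20 tested, with none lower, beside 5.82% and 5.24% of all genes. SEOR1 and SEOR2 encode the sieve element proteins that form filaments in the phloem. SEOR1 measured 106 and 158 in grafted tops, 159 and 193 in grafted bottoms, 25.3 and 27.8 in separated tops and 9.79 and 0.324 in separated bottoms (3.89 ± 0.31, adjusted p = 7.9e-15), and SEOR2, its neighbour on the chromosome, differed by 3.72 ± 0.29. SUC2, the sucrose carrier that loads companion cells, measured 96.1 and 114 in grafted tops, 130 and 157 in grafted bottoms, 23.5 and 46.9 in separated tops and 40.7 and 56.1 in separated bottoms. Its difference was alike in tops (1.63 ± 0.46) and bottoms (1.56 ± 0.46; adjusted p of the difference between parts = 0.93), all 4 unjoined libraries were under 60, and intact hypocotyls stood at 101 and 118. APL, the factor of phloem identity, rose by 1.15, the lectin gene PP2-A1 by 1.97, the receptor kinase gene BAM3 by 2.65, and OPS and CVP2, which act in early sieve elements, by 2.77 and 1.98. The sugar exporters SWEET11 and SWEET12 did not pass, SWEET11 being lower in bottoms (-3.01 ± 0.50) and not different by the test in tops (0.87 ± 0.50, adjusted p = 0.15).

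Factors that respond to wounds and act in regeneration were higher in each part for 6 of 17 members, beside 5.82% of all genes. Among the 6 were ERF115, NAC071, NAC096 and AT5G61890. NAC071, which is needed for division of pith cells in cut stems, measured 15.9 and 10.4 in grafted tops, 12.9 and 6.8 in grafted bottoms, 2.99 and 4.13 in separated tops and 0.243 and 0.324 in separated bottoms (2.32 ± 0.19, adjusted p = 4e-14). NAC096, its relative, measured 34.6 and 31.4 in grafted tops, 38.7 and 31.5 in grafted bottoms, 6.07 and 5.83 in separated tops and 0.971 and 0.405 in separated bottoms (3.36 ± 0.25, adjusted p = 9.7e-16). ERF115, an AP2/ERF factor of stem cell replenishment, measured 18.8 and 7.12 in grafted tops, 11.4 and 5.83 in grafted bottoms, 2.99 and 3.88 in separated tops and 0.647 and 0 in separated bottoms (2.18 ± 0.22, adjusted p = 1.1e-11), with 1 grafted top far above the other. For all 3 each joined library was above each unjoined one, and intact tissue stayed at 3.32 or below. WIND1 and WIND2, factors of wound-induced dedifferentiation, were higher in grafted tops (0.76 ± 0.17 and 0.72 ± 0.20) and not different by the test in bottoms. RAP2.6L, an ERF that is known to act below the cut, measured 129 and 110 in grafted bottoms against 497 and 483 in separated bottoms (-2.03 ± 0.32, adjusted p = 3.5e-07). In tops it stood at 104 and 107 against 60.8 and 92.6 (adjusted p = 0.21).

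Rapid stress genes respond within minutes to touch, wounding and cold. They were higher in each part for 7 of 18 and for the mean for 15, beside 5.82% and 14.3% of all genes. ZAT10, a zinc finger factor, measured 195 and 138 in grafted tops, 428 and 356 in grafted bottoms, 69.4 and 113 in separated tops and 154 and 143 in separated bottoms, a difference of 1.14 ± 0.23 (adjusted p = 5.5e-05), with overlap, since 1 grafted top lay below separated bottoms. The 2 separated tops were uneven for several members. The calmodulin-like CML38 stood at 5.18 and 13.4 there, the cold factor CBF1 at 0.566 and 2.75 and WRKY40 at 4.29 and 10.2. WRKY53, ERF105, CBF2 and CBF3 were also higher in each part, by 2.05, 1.95, 1.55 and 1.67. TCH4, a touch-induced wall enzyme, was the 1 member lower for the mean (-1.29 ± 0.33), at 1170 and 669 in separated bottoms. CBF1, CBF2 and CBF3 are close copies side by side on the chromosome, so their single values are uncertain.

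Genes of nitrate use changed in both directions. NIR1, nitrite reductase, measured 324 and 301 in grafted tops, 319 and 309 in grafted bottoms, 65.5 and 56.6 in separated tops and 79.1 and 49.6 in separated bottoms. The 4 joined libraries lay from 301 to 324, below the intact 364 and 417, and all unjoined ones were under 80, while the effect was of like size in tops (2.34 ± 0.22) and bottoms (2.31 ± 0.22; adjusted p = 4.2e-17 for the mean). UPM1, which makes the sirohaem of that enzyme, rose too (1.25 ± 0.25 and 2.05 ± 0.25), as did the nitrate reductase NIA2 (1.29 ± 0.27 and 0.72 ± 0.27). Its close copy NIA1 was lower in each part, at 98.4 and 140 in grafted tops, 172 and 196 in grafted bottoms, 239 and 257 in separated tops and 548 and 412 in separated bottoms (-1.22 ± 0.26, adjusted p = 0.00011). NRT1.8, a transporter that takes nitrate out of the xylem, was lower for the mean (-1.87 ± 0.29), with 2.75 and 3.64 in grafted tops and 35.4 and 27.8 in separated tops. The nitrate-induced repressors LBD37, LBD38 and LBD39 were higher in grafted tops (1.46 ± 0.32, 0.91 ± 0.32 and 1.71 ± 0.37) and did not pass in bottoms. Over the list, 4 of 17 were higher and 1 lower in each part, beside 5.82% and 5.24% of all genes. The median was 0.48 in tops and 0.45 in bottoms.

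Iron genes were mostly lower in grafted tops (13 of 19, 4 higher), and 3 were lower in each part. Over all genes 29.6% were lower and 19.6% higher in tops, and 5.24% were lower in each part. FRO2, the ferric reductase of iron-starved roots, stood at 0.0809 and 0 in grafted tops, 0 and 0 in grafted bottoms, 7.85 and 4.21 in separated tops and 1.86 and 1.78 in separated bottoms (-2.10 ± 0.17, adjusted p = 1.2e-14). OPT3, a phloem transporter of iron and copper, stood at 144 and 155 in grafted tops, 113 and 129 in grafted bottoms, 347 and 362 in separated tops and 292 and 249 in separated bottoms (-1.19 ± 0.23), and BTS, an E3 ligase that limits the iron response, at 74.5 and 83.8 in grafted tops, 72.5 and 66.1 in grafted bottoms, 132 and 155 in separated tops and 167 and 160 in separated bottoms (-1.04 ± 0.14). For OPT3 and BTS each joined library was below each unjoined one and the effects in tops and bottoms were close. IRT1, the iron importer, and BHLH38, a factor that activates it, were above 0.7 in no library but separated tops, where they stood at 5.75 and 5.66 and 30.4 and 26.6. The ferritins, which store iron, differed among themselves. FER1 was higher in grafted than separated tops (2.08 ± 0.39) and lower in grafted than separated bottoms (-1.36 ± 0.39), as was FER4 (1.59 ± 0.27 and -1.31 ± 0.27), whereas FER3 was lower for the mean (-0.58 ± 0.19, adjusted p = 0.0078). NAS3, a nicotianamine synthase like NAS1, measured 7.12 and 5.5 in grafted and 394 and 359 in separated bottoms (-5.70 ± 0.37), where NAS1 went the other way.

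Transcripts for the synthesis of aliphatic glucosinolates, sulphur-rich defence compounds made from methionine, were higher in joined tissue, mostly below the cut. Of the 16 genes 6 were higher in tops and 15 in bottoms, beside 19.6% and 30.6% of all genes. The list had the largest median of the 29 for the mean of both parts, 2.19, with 0.71 in tops and 3.81 in bottoms, though with a pseudocount of 5 it was 1.35, under the 1.51 of the cambium list. In all, 14 of 16 members passed for the mean and 5 in each part, where 14.3% and 5.82% of all genes were higher. Those 5 were the factors MYB28 and MYB76 and the enzymes MAM1, BCAT4 and CYP83A1. MYB28 measured 148 and 219 in grafted tops, 111 and 169 in grafted bottoms, 88 and 103 in separated tops and 3.88 and 1.46 in separated bottoms (3.11 ± 0.25, adjusted p = 1.8e-14), and CYP83A1 measured 49.7 and 36.7 in grafted tops, 83.1 and 93.1 in grafted bottoms, 8.9 and 15.6 in separated tops and 0.243 and 0 in separated bottoms (4.04 ± 0.48, adjusted p = 8.2e-10). Joined libraries were above unjoined ones in both genes, but intact libraries, at 205 and 214 and 380 and 255, were within or above the joined range. CYP79F1 was low in every cut library, 1.29 and 0 in grafted tops and 2.35 and 11.1 in grafted bottoms against 103 and 57.5 in intact tissue, and its near-identical neighbour CYP79F2 makes the counting of both uncertain. Of the indole branch 1 of 13 passed in each part, CYP79B3, at 85.1 and 117 in grafted tops, 126 and 141 in grafted bottoms, 12.6 and 19.7 in separated tops and 16.8 and 10 in separated bottoms (2.93 ± 0.34, adjusted p = 5.5e-10).

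Cell wall genes moved gene by gene. The expansins EXPA1, EXPA4 and EXPA8, which loosen walls, were higher in each part. EXPA4 measured 526 and 522 in grafted tops, 538 and 452 in grafted bottoms, 145 and 145 in separated tops and 26.5 and 20.6 in separated bottoms (3.09 ± 0.19, adjusted p = 1.6e-18), and its 2 intact libraries stood at 124 and 155, near separated tops. XTH20, a xyloglucan enzyme linked to pith repair in cut stems, measured 270 and 242 in grafted tops, 123 and 116 in grafted bottoms, 56.2 and 48.1 in separated tops and 0 and 0 in separated bottoms (4.59 ± 0.28, adjusted p = 1.1e-18) and was at 1.05 in both intact libraries. XTH4 was higher in each part by 1.2 and 1.42, XTH16 was lower (-1.48 and -2.30), and XTH19 was lower in grafted tops (-2.61 ± 0.60) and higher in grafted bottoms (3.27 ± 0.60). In all, 5 of 20 were higher and 1 lower in each part, beside 5.82% and 5.24% of all genes.

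Hormone lists had about the share of members called in each part that all genes had (5.82% higher and 5.24% lower). Of 19 auxin response genes, 15 were higher in bottoms, 2 were higher and 2 lower in tops, and 1 rose in each part, IAA13 (0.77 ± 0.19 and 2.06 ± 0.19). Over all genes 30.6% were higher in bottoms, and 19.6% were higher and 29.6% lower in tops. IAA1, IAA2 and IAA3, early auxin genes, were higher for the mean (2.09 ± 0.25, 1.38 ± 0.25 and 2.12 ± 0.37) without passing in tops (adjusted p = 0.14, 0.11 and 0.13). IAA1 was listed at 0.0809 and 0 in separated bottoms and 14 and 8.9 in grafted bottoms. Of 22 jasmonate genes LOX3 alone rose in each part (1.30 ± 0.53 and 1.62 ± 0.53), and the allene oxide synthase AOS rose in bottoms (4.08 ± 0.38) but not in tops (0.26 ± 0.38, adjusted p = 0.6). No cytokinin gene of 12 and no salicylic acid gene of 13 passed in each part. ACS7, an ethylene synthesis gene, was lower in each part (-0.89 ± 0.32 and -2.27 ± 0.32), and ERD10, a dehydrin, was higher (0.99 ± 0.28 and 5.19 ± 0.28), each the 1 member called in each part of 16 ethylene and 18 abscisic acid genes.

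In the phosphate starvation, lignin, hypoxia and clock lists, too, the counts called in each part were 0 or 1 in either direction, near the shares of all genes (5.82% higher and 5.24% lower). For the counts below, 29.6% of all genes were lower in tops and 14.3% higher for the mean. Of 16 phosphate starvation genes 12 were lower in grafted tops, PHO1;H1, a phosphate exporter, was higher in each part and SQD2, a sulfolipid synthase, lower in each part. Of 12 lignin genes 6 were higher for the mean and FAH1, ferulate 5-hydroxylase, in each part. Of 13 hypoxia genes and 16 clock genes none was called in each part. For the mean, the hypoxia genes HB1 and LBD41 went opposite ways, and the clock genes PRR5, PRR3 and BOA were lower. HB1 did not pass without separated bottom replicate 1 (0.63) or with quantile normalisation (0.54), and PRR5 lost its call when any 1 of 4 libraries was left out (-1.67 to -1.90). BOA differed in tops (-2.01 ± 0.39) and hardly in bottoms (-0.08 ± 0.39). Without separated bottom replicate 2 its mean effect of -0.96 still had an adjusted p of 0.0097, but the signs in tops and bottoms were no longer the same. The 29 lists hold 528 distinct genes, of which 512 were tested. The other 16 were too low, among them the xylem factors NST1 and SND1 and the defence marker PR1.

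In several large lists most members went opposite ways above and below the cut. All 36 photosynthesis genes were higher in grafted than separated tops and lower in grafted than separated bottoms, as were 10.2% of all genes. Their medians were 3.79 and -1.50, and none was called by the rule that asks for 1 sign. LHCB2.3, a light-harvesting protein, measured 95.1 and 102 in grafted tops, 379 and 312 in grafted bottoms, 0.566 and 1.62 in separated tops and 2050 and 1580 in separated bottoms. Grafted parts lay between the 2 kinds of separated part, and intact hypocotyls stood at 1090 and 1890. CA1, a carbonic anhydrase, had the most positive difference between the parts, 8.70 ± 1.00 (adjusted p = 2.6e-10), with 386 and 473 in grafted and 1.62 and 7.28 in separated tops against 1540 and 1120 and 6890 and 5160 in bottoms. As the light-harvesting genes are close copies of each other, single members are uncertain.

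Genes induced by sugar starvation fell in grafted bottoms for 22 of 24 and rose in grafted tops for 10, beside 29.4% and 19.6% of all genes. ASN1, the asparagine synthetase of starved tissue, measured 22.8 and 17.9 in grafted tops, 26.8 and 17.6 in grafted bottoms, 4.13 and 4.05 in separated tops and 1320 and 2660 in separated bottoms, with effects of 2.06 ± 0.72 in tops and -6.37 ± 0.72 in bottoms (adjusted p of the difference = 8.3e-10). Both kinds of grafted part had overlapping levels, and the 2 kinds of separated part lay on either side of it. DIN2, above, was the 1 member lower in each part. Genes induced by sugar did the reverse, 14 of 16 being lower in grafted tops and 9 higher in grafted bottoms. The shares of all genes were 29.6% and 30.6%. TT5, a chalcone isomerase of flavonoid synthesis, was lower in each part (-2.35 ± 0.51 and -1.39 ± 0.51). NAP and WRKY75, factors that promote leaf senescence, were lower in each part too, 2 of 11 senescence genes tested beside 5.24% of all genes. NAP stood at 5.18 and 1.13 in grafted tops, 4.21 and 0.971 in grafted bottoms, 8.42 and 7.2 in separated tops and 31.9 and 81.8 in separated bottoms (-2.65 ± 0.36, adjusted p = 3.2e-08).

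Cell cycle genes were lower in grafted tops for 22 of 27 and higher in grafted bottoms for 24, beside 29.6% and 30.6% of all genes. The mitotic cyclin CYCB1;1 measured 8.25 and 6.07 in grafted tops, 5.18 and 3.48 in grafted bottoms, 24.8 and 18.8 in separated tops and 0 and 0 in separated bottoms, so grafted tops were below separated tops (-1.48 ± 0.25) and grafted bottoms above separated bottoms (2.4 ± 0.25). The D-type cyclin CYCD3;1, which keeps cambium cells dividing, was the 1 member higher in each part, at 90.6 and 105 in grafted tops, 73.7 and 72.7 in grafted bottoms, 41 and 44.7 in separated tops and 3.56 and 1.62 in separated bottoms (2.80 ± 0.17, adjusted p = 4.2e-19). Of 10 ribosome and nucleolus genes all 10 were lower in grafted tops and 3 were higher in grafted bottoms, beside the same 29.6% and 30.6%. FIB1, a nucleolar fibrillarin, was lower in each part (-0.56 and -0.53), and its mean effect did not pass with quantile normalisation (-0.28).

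**Figure D4:**
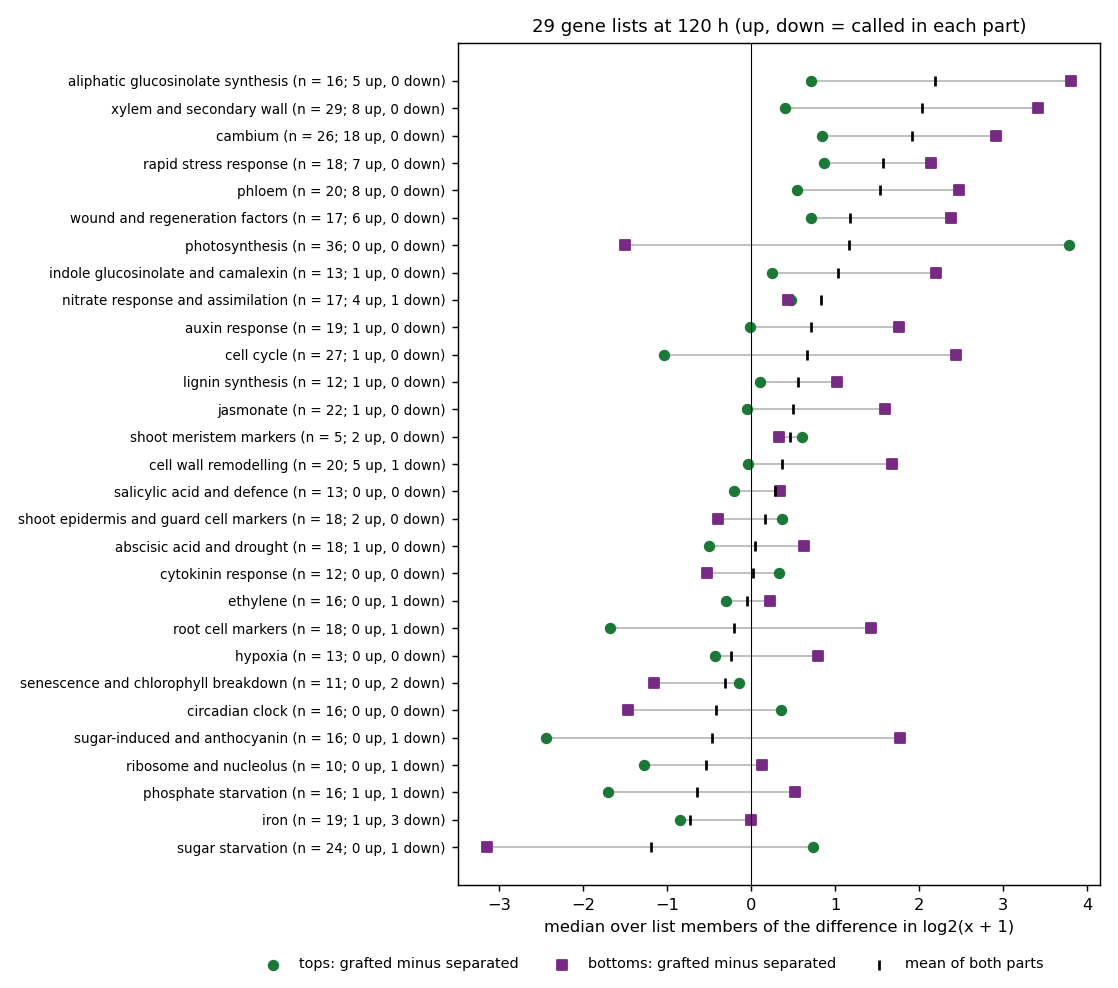
Median over the members of each of 29 gene lists of the grafted minus separated difference in log2(x + 1) at 120 h, in tops (green circles), in bottoms (purple squares) and for the mean of both (black bars), with the counts of members called in each part. For cambium, phloem, xylem, wound and rapid stress lists both symbols lie right of 0, while photosynthesis, sugar and cell cycle lists have 1 symbol on each side.

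Among the lists of cell type markers, that of root cells mostly moved in opposite directions above and below the cut. Of 18 root cell markers 15 were lower in grafted than separated tops and 10 higher in grafted than separated bottoms, beside 29.6% and 30.6% of all genes. The summed x of the root markers was 324 and 362 in grafted tops, 775 and 869 in separated tops, 847 and 701 in grafted bottoms and 112 and 75.9 in separated bottoms, beside 874 and 1100 in intact tissue. The root hair genes PRP3, LRX1, RHD6 and EXPA7 and the root meristem gene PLT1 were listed at 0 in all 4 bottom libraries and stood at 62.1 and 83.8, 39.9 and 48.3, 24.7 and 23.8, 12.3 and 16.2 and 21.4 and 15.1 in separated tops. The endodermal genes CASP1, CASP2 and CASP5 were at 0 in both separated bottoms, CASP1 at 180 and 141 in grafted bottoms. SCR, an endodermis and ground tissue factor, was the 1 marker lower in each part (-0.85 ± 0.16). Of 5 shoot meristem markers 2, KNAT6 and CUC3, factors of organ boundaries, rose in each part, beside 5.82% of all genes. CUC3 measured 7.69 and 9.23 in grafted tops, 5.1 and 5.66 in grafted bottoms, 0.728 and 0.728 in separated tops and 0.243 and 0.324 in separated bottoms (2.38 ± 0.15, adjusted p = 3.3e-18), and STM, which marks the meristem itself, was at 0.162 to 0.405 in bottoms and did not differ by the test in tops (-0.15 ± 0.31, adjusted p = 0.72). Of 18 shoot epidermis and guard cell markers 4 were higher and 4 lower for the mean, beside 14.3% and 17.5% of all genes. In each part 2 of them, CER5 and CER6, were higher. The summed x of the 18 was 1340 and 1480 in grafted tops, 859 and 1220 in separated tops, 1200 and 1280 in grafted bottoms and 702 and 889 in separated bottoms. The share of these marker levels in the differences above was not tested.

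Against intact hypocotyl, joined parts were the closer ones in number of differing genes. Grafted tops differed from intact tissue in 9362 genes (45.1%) and separated tops in 13938 (67.1%). Grafted bottoms differed in 8115 (39.1%) and separated bottoms in 9589 (46.2%). These comparisons share the 2 intact libraries. Among the 1088 genes lower in each part the intact mean lay nearer the joined than the unjoined mean for 76.9%, beside 55.4% of all genes tested. For the 1209 genes higher in each part it was 54.8%. Of those, 28.8% had their intact level beyond the joined mean, 47.6% between the means and 23.6% beyond the unjoined mean, beside 41.7%, 26.0% and 32.4% of all genes tested.

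The same contrast at the other times used different libraries. Genes called in each part numbered 0 higher and 0 lower at 6 and 12 h, 0 and 2 at 24 h, 15 and 33 at 48 h, 469 and 465 at 72 h, then 1209 and 1088 at 120 h, 543 and 390 at 168 h and 325 and 100 at 240 h. Calls in bottoms were already 1527 at 6 h and 8847 at 48 h, whereas calls in tops were 6 and 250 and reached 4790 at 72 h and 10206 at 120 h. So the number called in both followed the number called in tops. Many of the 120 h genes were called at other times too, by the rule for the mean. That rule asks only for 1 sign in both parts, so an effect almost confined to bottoms can pass it. PXY passed at 6 h with 0.24 in tops and 3.80 in bottoms. With so few calls in tops up to 48 h, the shares at those times do not show a response in both parts. Of the 1209 higher genes 12.0% were called higher at 6 h, when 1.70% of all genes were, and the share went through 13.2% (12 h, all genes 3.47%), 17.7% (24 h, 3.89%) and 45.8% (48 h, 11.1%) to 66.9% (72 h, 11.7%). After 120 h it was 77.2% (168 h, all genes 11.4%) and 52.6% (240 h, 12.6%). Of the 1088 lower genes 1.93% were called lower at 6 h, when 0.722% of all genes were, then 6.71% (12 h, all genes 3.13%), 11.6% (24 h, 3.48%), 47.8% (48 h, 10.5%) and 73.7% (72 h, 14.0%). Later it was 69.5% (168 h, all genes 13.9%) and 44.6% (240 h, 12.1%).

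Single genes took different courses in tops. PXY differed between grafted and separated bottoms by 3.80 at 6 h and 4.45 at 48 h, while in tops the difference was 0.24 and 0.26. The value for tops then reached 0.68 at 72 h and 2.1 at 120 h, and was back to 0.71 and -0.18 by 168 and 240 h. For HB8 in tops it was 0.21 at 48 h, 2.08 at 120 h and -0.20 by 240 h. NAS1 differed by 2.05 in tops and -0.05 in bottoms at 48 h, by 2.35 and 2.43 at 72 h and by 4.68 and 8.10 at 120 h. GRP9 had a mean difference of 0.59 at 72 h (adjusted p = 0.13), 6.06 at 120 h and 4.52 at 168 h (adjusted p = 5.7e-16). DIN2 fell by 3.36 at 72 h (adjusted p = 4e-07), 6.11 at 120 h and 4.30 at 168 h, and stood at 0.07 at 240 h (adjusted p = 0.95). NIR1 rose by 1.28 at 72 h (adjusted p = 4e-09), 2.32 at 120 h and 0.61 at 168 h (adjusted p = 0.0015). These 6 genes, chosen at 120 h, had their largest mean difference of the 8 times there, which follows in part from the choice. Others came earlier. GulLO5, one of the 12 lower genes, differed in tops by -2.28 at 24 h, -2.62 at 48 h and -2.43 at 120 h, and SUC2 by 2.50 at 72 h against 1.63 at 120 h.

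**Figure D5:**
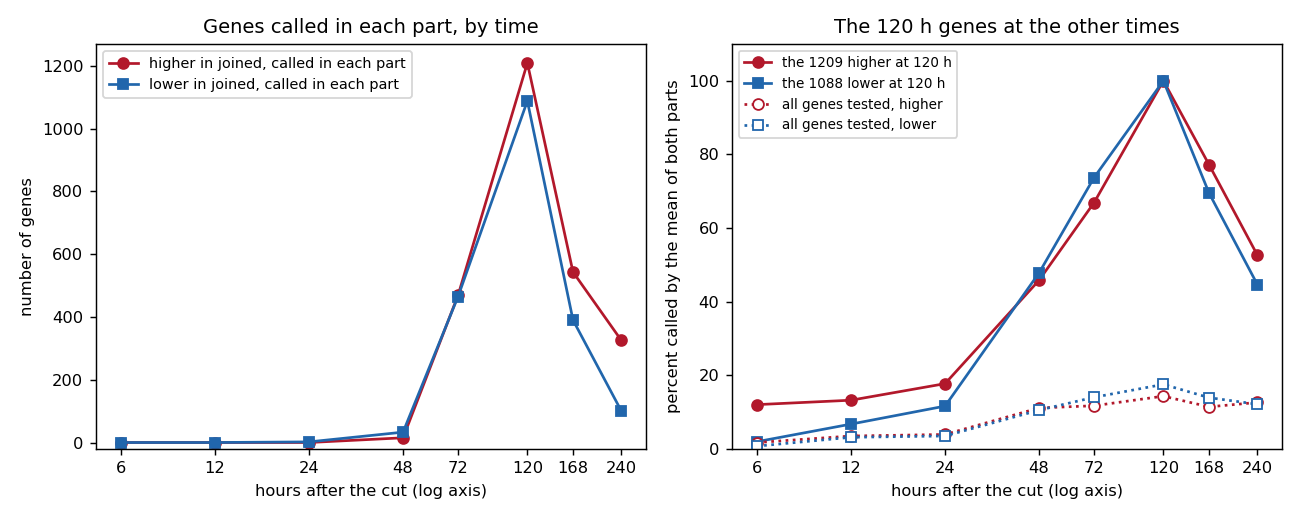
Left, number of genes called in each part in 1 direction, against hours after the cut on a log axis; it is highest at 120 h, with 1209 and 1088. Right, the percent of those 120 h genes that were called in the same direction for the mean of both parts at each time (filled symbols, 100% at 120 h by choice) beside the percent of all 20766 genes (open symbols), which stayed at 17.5% or below.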

How the data were processed

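RNA-seq of hypocotyl tissue was deposited as a table of 27416 genes by 82 libraries, 41 groups of 2 independent biological replicates. The authors deposited library-normalised values, treated here as a score since no label gives their scaling. Trimming with cutadapt 1.8.1 and alignment with Bowtie2 to TAIR10 are named in the submitters' processing notes, while the counting tool, its strand setting and the annotation were not found in the labels. Without strand, a gene and an antisense partner cannot be told apart.

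All values were multiplied by 1 constant that sets the median library sum to 1 M. Genes reaching x = 1 in 2 or more libraries were kept (20766) and log2(x + 1) was fitted with limma 3.58.1 in R 4.3.3, with trend, 1 mean per group over all 82 libraries and 41 residual degrees of freedom. Contrasts were grafted minus separated at 120 h in tops, in bottoms, their mean and their difference, the mean at 7 other times, and each cut group minus intact. The Benjamini-Hochberg adjusted p had to be under 0.05. "Passed for the mean" also asks for the same sign in both parts, and "in each part" for an adjusted p under 0.05 in both. Tables and figures were made with Python 3.11.15, pandas 2.3.3, NumPy 2.4.6 and Matplotlib 3.10.9. The fit was tested on simulated data with genes changed alike in both parts. The rule for the mean recovered 14 of 67 genes at 1.5-fold, 52 of 67 at 2-fold and 66 of 66 at 4-fold. The rule in each part recovered 0, 10 and 66 of them. Of 20583 unchanged genes 15 passed for the mean and 0 in each part. Far fewer genes were changed there than were called in the data, so recovery in the data can differ.

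A second deposited table, also divided by gene length, was not used. Depth was estimated from the spacing of low values, which are near whole multiples of what 1 read is worth, and the range of 10.3 to 20.21 M reads bounds the precision of low genes. Intact libraries were estimated at 8.18 and 12.7 M. Estimated reads were not used in any test.

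Members, lists and rules were chosen with earlier results of these data known. Named are the 12 genes with the largest positive and the 12 with the largest negative mean effect among those called in each part with mean x of at least 5, the 4 most positive and 4 most negative differences between parts, up to 4 called members of each list and a panel of further genes. Other list members named beside their counts were chosen after their values were seen. Alternatives were pseudocounts of 0.25 and 5, no filter and a filter of x of at least 5, median-of-ratios and quantile scaling, a fit of the 8 libraries alone, a block on replicate number and leaving out each library.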

Additional observations from a re-analysis of the deposited data

Results flagged for a closer look

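The effect of joining differed between tops and bottoms by limma's test of the difference for many genes, in 5015 being more positive in tops and in 7817 more negative. Of the 147 named genes 106 differed between the parts, beside 24.2% of all genes more positive and 37.6% more negative in tops. Called in opposite directions were 8 of the 147. Of all genes 10.2% rose in tops and fell in bottoms and 9.66% did the reverse. Named genes were chosen in part by direction and by the difference between parts, so these counts are no result about them. The most positive differences (tops minus bottoms) were those of CA1 at 8.70, ASN1 at 8.43, AT2G10940 at 8.20 and LHB1B1, a light-harvesting protein, at 8.06. The most negative were those of PELPK1, a repeat-rich wall protein gene, at -9.50, the laccase LAC3 at -9.30, AT3G55230 at -9.22 and AT3G22620, a lipid-transfer family protein, at -8.94. PELPK1 measured 209 and 149 in grafted tops, 597 and 453 in grafted bottoms, 243 and 310 in separated tops and 0.0809 and 0.162 in separated bottoms, so grafted tops were below separated tops while grafted bottoms were far above separated bottoms. LAC3 measured 76.2 and 92.3 in grafted tops, 409 and 300 in grafted bottoms, 144 and 172 in separated tops and 0.0809 and 0 in separated bottoms. AT2G10940 measured 128 and 208 in grafted tops, 174 and 132 in grafted bottoms, 0.324 and 0.809 in separated tops and 1050 and 169 in separated bottoms, so that grafted tops were above separated tops, and 1 separated bottom was within the range of the grafted libraries. The cause of these differences was not tested.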

How the results depend on the processing

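Of 208 counts of genes recomputed with 1 library of 120 h left out, 207 stayed within 1.5 times the reported count, and of 194 under the other alternatives 189 did. Genes lower in each part ranged from 687 to 1002 with 1 library left out, and numbered 634 with median-of-ratios scaling; genes higher in each part ranged from 838 to 1199. Median-of-ratios scaling moved the higher share of calls in each part from 52.6% to 70.5% and of mean calls to 59.3%, and quantile normalisation moved them to 48.5% and 37.8%. At 72 h the lower count was 1669 with median-of-ratios scaling, and at 12 h it was 426 with quantile normalisation. The cause was not tested.

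A block on replicate number gave 1351 genes higher and 1255 lower in each part. With the block, lower genes at 6 h became 253 and at 12 h 981. The labels do not say that the numbers pair libraries, and deviations of same-numbered libraries correlated at 0.0114 to 0.156 between the 4 groups.

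Of the 147 named genes' mean effects, 1135 of 1176 values with 1 library left out and 1152 of 1175 under other alternatives kept direction and call. Reversed values, none of them called, were -0.26 for LHB1B1 and -0.12 for CYCB1;1 with a pseudocount of 5, 0.11 for EXT3 and 0.018 for STM with median-of-ratios scaling, while with 1 library left out EXT3 ranged from -0.221 to 0.197 and STM from -0.143 to 0.036. The median of root cell markers was 0.34 with a pseudocount of 0.25, against -0.20.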
